A study of Mus musculus with 4 samples.

Results

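Amine oxidases convert an amine to an aldehyde and release hydrogen peroxide. The set described here held 10 mouse genes, named as a family and not chosen by their values, of which 4 encode flavin enzymes (Maoa, Maob, Smox and Paox) and 6 encode copper enzymes (Aoc3, Lox, Loxl1, Loxl2, Loxl3 and Loxl4). Members were read from Affymetrix probe sets annotated to exactly 1 of these symbols. This gave 14 probe sets for 8 of the 10 genes, among 34945 such probe sets for 18193 genes in all. Paox had none, and the probe sets listed for Loxl2 also carried the symbol Gm21451, a predicted mouse gene. Where a gene had several probe sets, the main one was that with the highest mean signal over the arrays.

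RNA was measured in C2C12 cells, a mouse myoblast line that leaves the cell cycle and forms myotubes when serum is lowered. Cells were moved from 10% fetal bovine serum to 2% horse serum, with 25 mM glucose throughout, and received tranylcypromine (TC, 1 array), S2101 (1 array) or vehicle (2 control arrays) for 48 h. Both compounds are labelled as inhibitors of the histone demethylase LSD1 (Kdm1a), itself a flavin amine oxidase, and TC is long known as an inhibitor of monoamine oxidases. The labels state no dose, so values of the compounds stand side by side and were not tested against each other. Separate cultures are not mentioned in the labels, and the p-values refer to the spread among these arrays alone, which may be technical.

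The flavin enzymes work inside the cell. Monoamine oxidases sit on the outer mitochondrial membrane and break down serotonin, noradrenaline and dopamine, and the polyamine oxidases act on spermine or on acetylated polyamines. Lysyl oxidases are secreted copper enzymes that oxidise lysines of collagen and elastin, the step that starts crosslinking of the matrix, while Aoc3 is a cell surface enzyme known from fat, smooth muscle and endothelium. A change in a transcript says nothing of whether an enzyme was inhibited.

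Promoter sequence was on hand for 4 of the 10 members, in the RefSeq table for GRCm38.p6. The 250 bases before the annotated start are shown for the flavin members Maoa and Smox, which were bright enough to test. Those of Loxl4, the only copper member with promoter sequence, are shown too. Loxl4 was too dim to test, and 1 promoter cannot stand for the copper class. Capitals mark the GC box GGGCGG or its reverse complement CCGCCC, the motif bound by Sp1-type factors.
Maoa (chrX:16619448-16619697, strand +): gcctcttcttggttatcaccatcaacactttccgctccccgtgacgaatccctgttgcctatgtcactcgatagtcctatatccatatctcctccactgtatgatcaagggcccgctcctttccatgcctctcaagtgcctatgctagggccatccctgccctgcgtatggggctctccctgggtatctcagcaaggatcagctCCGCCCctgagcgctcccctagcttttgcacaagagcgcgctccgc
Smox (chr2:131491612-131491861, strand +): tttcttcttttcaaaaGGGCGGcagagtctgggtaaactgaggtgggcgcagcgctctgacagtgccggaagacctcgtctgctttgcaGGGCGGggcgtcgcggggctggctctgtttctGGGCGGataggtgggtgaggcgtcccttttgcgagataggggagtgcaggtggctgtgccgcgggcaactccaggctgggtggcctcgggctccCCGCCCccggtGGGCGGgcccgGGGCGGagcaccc
Loxl4 (chr19:42612807-42613056, strand -): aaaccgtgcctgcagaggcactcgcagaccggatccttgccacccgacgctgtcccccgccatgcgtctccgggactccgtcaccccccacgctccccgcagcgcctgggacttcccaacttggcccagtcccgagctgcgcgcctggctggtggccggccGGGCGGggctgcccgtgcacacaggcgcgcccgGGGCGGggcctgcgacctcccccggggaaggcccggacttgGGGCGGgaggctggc
The GC box occurred 6 times before Smox, 3 times before Loxl4 and 1 time before Maoa, and 32.7% of 32851 windows of this length hold at least 1. The nearest match to the start began at base -13 in Smox, -15 in Loxl4 and -46 in Maoa. None of the windows shown held TATAAA (12.4% of windows) or CAGCTG, the E-box favoured by myogenic factors (13% of windows), on either strand. They also lacked ACGTG, the core of hypoxia elements (16.6% of windows). The remaining member with promoter sequence, the flavin member Paox, had overlapping windows that are not shown. Each of these held ACGTG, beginning at base -190 or -218, and the GC box, 1 time or 3 times, but neither TATAAA nor CAGCTG. No match of these motifs overlapped another in the windows shown. G and C made up 76% of the Loxl4 window, 68% of the Smox window and 56.8% of the Maoa window.

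The deposited signals are MAS5 intensities on a linear scale, with a 2% trimmed mean of 500.0 on each array. Differences are given in log2(signal + 50), which understates the change of dim genes. Precision is limited by having 4 arrays. A gene was tested if its mean signal over the 4 arrays reached that of the median gene (178.8). This left 9097 genes, and among the members Maoa, Smox, Lox, Loxl1 and Loxl3, with Maob, Aoc3 and Loxl4 below the limit. In the control arrays and both inhibitor arrays the muscle markers Myod1, Myog, Des, Myh3, Ckm, Acta1 and Tnnt3 were all bright (mean signals 1767 to 26962), and 0 of these 7 passed the test between inhibitor and control arrays (limma; 1 had an unadjusted p under 0.05). Markers of cells known for Aoc3 were also read. None of 4 adipocyte or 5 endothelial markers with a probe set reached the limit. Signals of the adipocyte genes summed to 54.1 with TC, 79.4 with S2101, and 78.7 and 38.0 on the controls, and those of the endothelial genes to 150.4, 191.3, 165.4 and 84.6 in the same order. Of smooth muscle markers, Smtn and Des were tested, and the 4 genes summed to 9568 with TC and 8549 with S2101, against 7708 and 8416 on the controls. Most of each sum was Des, also a muscle marker above, at 9072 with TC and 8026 with S2101, against 7133 and 7936 on the controls. Myh11 and Cnn1 were dim (mean signals 20.9 and 18.2). Cd14 alone of 4 leukocyte markers (sums 424 with TC and 591 with S2101, against 485 and 539 on the controls) and Tubb3 alone of 4 neuronal markers (sums 1065 with TC and 938 with S2101, against 1144 and 1100.1 on the controls) reached the limit. The part of such cells in the members' signals was not tested. Gapdh control probes at the 3′ end over those at the 5′ end, which reads RNA integrity, gave 0.790 with TC, 0.743 with S2101, and 0.782 and 0.770 on the controls.

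The main comparison set the TC and S2101 arrays (n = 2) against the control arrays (n = 2). The inhibitor arrays were 1 of each compound, so a difference between the compounds counted as spread in this fit. Of the 5 tested members 1 fell, Loxl3, and 4 failed the test. Of all 9097 genes, 3.74% fell, 4.28% rose and 8.01% passed in either direction. All 3 tested lysyl oxidases had lower signals on both inhibitor arrays than on both controls, as did 23.4% of all tested genes. Maoa had higher signals on both inhibitor arrays, as did 27.6% of all tested genes, and Smox slightly lower ones. Groups without overlap, as in all 5 tested members, occurred in 51.1% of tested genes. The median log2 difference of all tested genes was 0.01. In such bulk RNA, fewer cells of a type and less RNA per cell cannot be told apart.

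**Figure D1:**
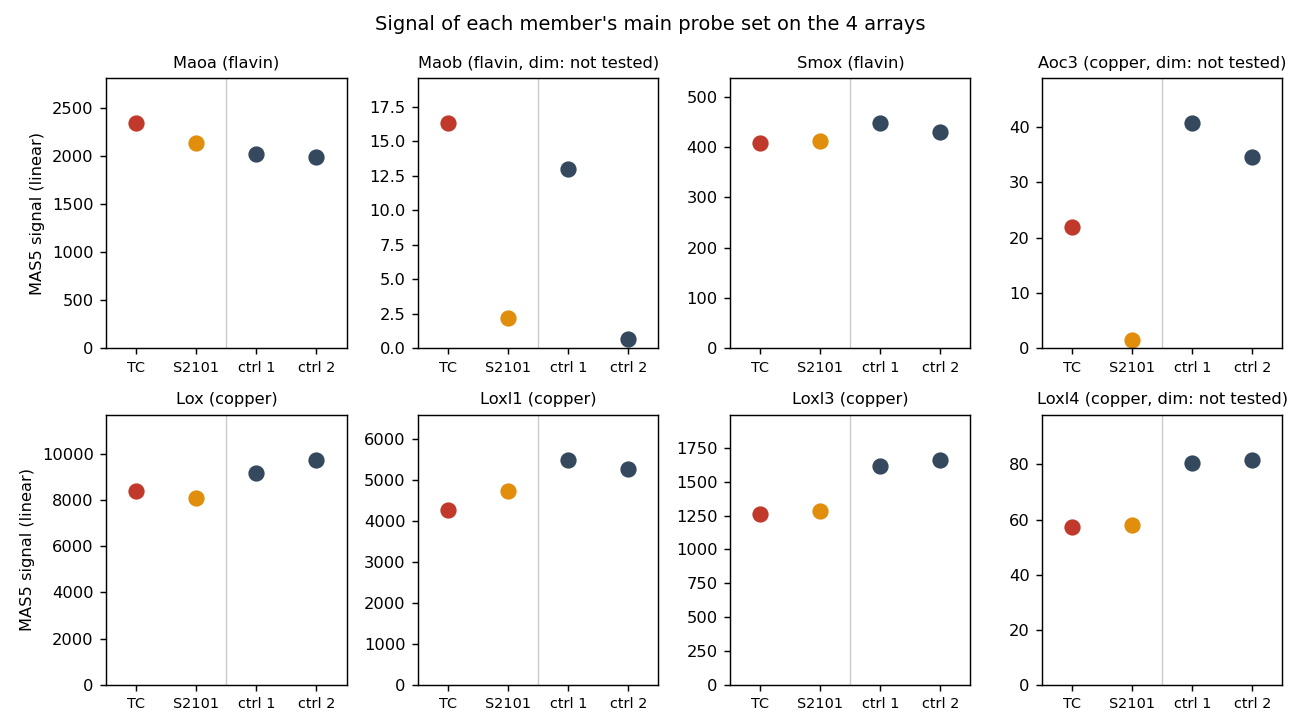
MAS5 signal (linear scale from 0, own scale for each gene) of the main probe set of 8 members on the TC, S2101 and 2 control arrays, 1 point per array. Smox, Lox, Loxl1, Loxl3, Loxl4 and Aoc3 lay lower on both inhibitor arrays than on both controls, Maoa lay higher, and Maob, with signals of 0.68 to 16.3, overlapped.

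Among the flavin enzymes, Maoa, the oxidase that prefers serotonin and noradrenaline, had signals of 2336 with TC and 2135 with S2101, against 2019.6 and 1991 on the controls. Both inhibitor arrays were above both controls, and the mean was 11.5% higher. The log2 difference was 0.15 ± 0.08 (SE; 95% interval -0.03 to 0.33; adjusted p = 0.308, limma with Benjamini-Hochberg). Its other bright probe set gave 371 with TC and 467 with S2101, against 362 and 426 on the controls. There the TC array lay between the controls, so the probe sets of Maoa did not separate the groups in the same way.

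Smox, which oxidises spermine to spermidine, had signals of 409 with TC and 412 with S2101, against 447 and 431 on the controls. The groups did not overlap, yet the mean differed by only -6.53%, and the log2 difference was -0.09 ± 0.12 (95% interval -0.35 to 0.17; adjusted p = 0.725, limma). A dim second probe set ran the other way, at 31.1 with TC and 16.3 with S2101, against 10.4 and 3.65 on the controls. When the probe sets of Smox were averaged, the log2 difference turned to 0.14 and still did not pass (adjusted p = 0.604, limma).

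Maob, the oxidase that prefers phenylethylamine, was near the bottom of the scale. Its signals were 16.3 with TC and 2.17 with S2101, against 13.0 and 0.68 on the controls, so that 1 array of each group was high and 1 was low. With dim genes kept in the fit its log2 difference was 0.06 ± 0.18 (adjusted p = 0.935, limma), and 1.46% of all 18193 genes passed in that fit. Detection calls were not used here, and signals this low do not show whether the gene was expressed. For Paox, which acts on acetylated polyamines, no value is given.

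Among the copper enzymes, Loxl3, a lysyl oxidase with scavenger receptor domains, was the member that passed, and it was read by 1 probe set. Its signals were 1262 with TC and 1282 with S2101, against 1614 and 1661 on the controls. The 2 inhibitor values lay close together and well below both controls, and the mean fell to 1272 ± 14.1 with the inhibitors, against 1637 ± 32.6 on the controls (SD, n = 2 each). The SD with the inhibitors is the spread between 2 compounds with 1 array each, not between replicates. The log2 difference was -0.35 ± 0.08 (95% interval -0.54 to -0.17; adjusted p = 0.0273, limma), or -22.3% in mean signal. The difference stayed between -0.38 and -0.31 in 14 alternatives, but its call held in 8 of them. It ended without control 1 (adjusted p = 0.0885), without control 2 (0.151), without the TC array (0.0641) and, among other settings, with dim genes kept in the fit (0.0731, limma).

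Loxl1, a lysyl oxidase needed for elastic fibres, had signals of 4270.2 with TC and 4735 with S2101, against 5488 and 5278 on the controls. The TC array was the lowest and S2101 lay between it and the controls. Its mean differed by -16.4% and the log2 difference was -0.26 ± 0.08 (95% interval -0.42 to -0.09; adjusted p = 0.0666, limma), which did not pass, but passed when the S2101 array was left out (-0.33; adjusted p = 0.0242). A second bright probe set had 224 with TC and 315 with S2101, against 273 and 314 on the controls, and there the groups overlapped.

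Lox, the founding member that crosslinks collagen and elastin, had signals of 8371 with TC and 8071 with S2101, against 9163 and 9716 on the controls. Both inhibitor arrays were below both controls, with a mean difference of -12.9% and a log2 difference of -0.20 ± 0.07 (95% interval -0.35 to -0.05; adjusted p = 0.106, limma). Its second bright probe set had 4379 with TC and 4121 with S2101, against 5808 and 4423 on the controls. Here the lower control stood just above the TC array, and the gap between the controls (0.39 in log2) exceeded the difference between groups (-0.25). The remaining, dim probe set of Lox had 62.0 with TC and 63.4 with S2101, against 114 and 71.3 on the controls.

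Loxl4, another lysyl oxidase with scavenger receptor domains, was dim in both of its probe sets. The main one had 57.4 with TC and 58.0 with S2101, against 80.6 and 81.6 on the controls, and the other had 26.9 with TC and 48.0 with S2101, against 100.5 and 92.6 on the controls. Both probe sets were lower on both inhibitor arrays. With dim genes kept in the fit the main probe set gave a log2 difference of -0.28 ± 0.20 (adjusted p = 0.608, limma). Aoc3 had 22.0 with TC and 1.53 with S2101, against 40.7 and 34.7 on the controls, the lowest value being that with S2101. All its signals lay below the offset of 50, and its log2 difference of -0.52 ± 0.21 did not pass (adjusted p = 0.332, limma, dim genes kept).

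The probe sets carrying both Loxl2 and Gm21451 fell outside the rule for members and cannot be assigned to either gene. Loxl2 itself is a lysyl oxidase that acts on collagen of basement membranes. The brighter of them had signals of 693 with TC and 672 with S2101, against 1035 and 1075 on the controls, a difference of -35.3% in mean signal. In a fit over 16291 bright probe sets of any annotation, added after the data were seen, the difference was -0.59 ± 0.10 (adjusted p = 0.0102, limma), where 2.37% of probe sets fell. Leaving out any single array gave -0.62 to -0.57 with adjusted p of 0.0162 to 0.0390, and the call ended with dim probe sets kept (adjusted p = 0.0706, limma). The dimmer probe set had 50.1 with TC and 108 with S2101, against 107 and 113 on the controls, so there the S2101 array lay within the controls.

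**Figure D2:**
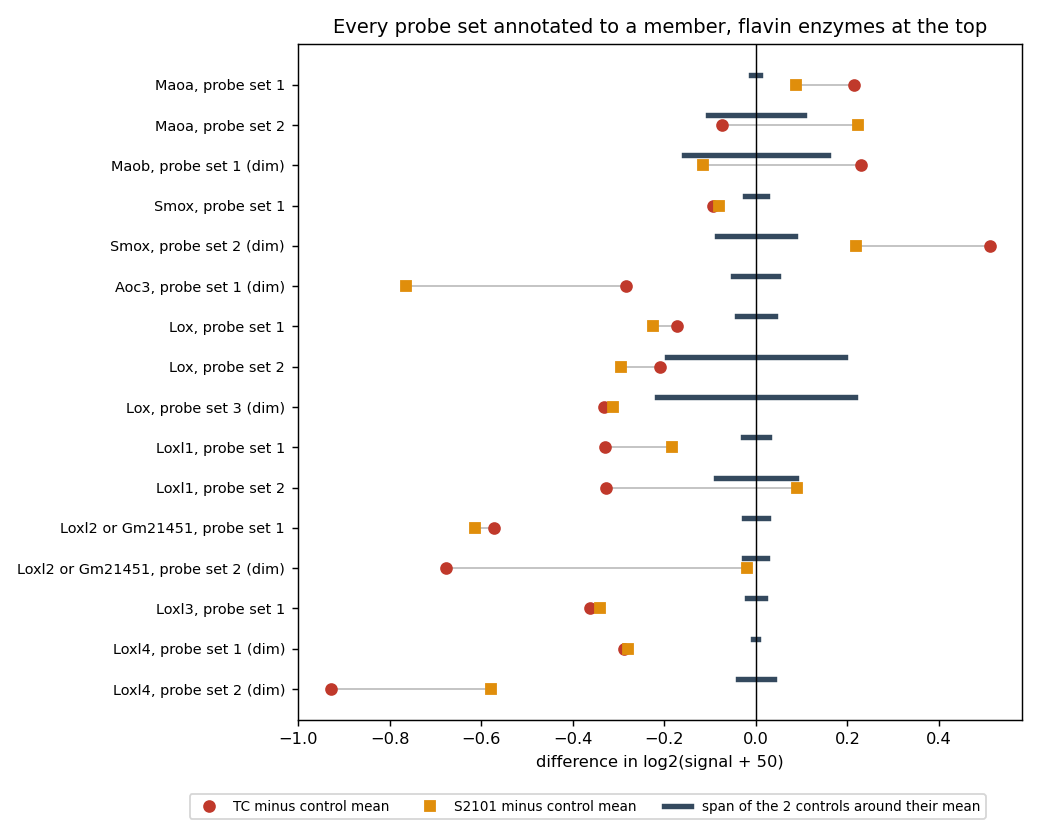
Difference from the control mean in log2(signal + 50) for each of 16 probe sets, TC as circles and S2101 as squares, with the span of the 2 controls as a bar; dim marks a mean signal below 178.8. Of the 9 copper probe sets with 1 symbol, 8 had both inhibitor arrays below both controls, as did 22.3% of all probe sets with 1 symbol. The exception was the second probe set of Loxl1, and those of Aoc3 and Loxl4 and the dimmest of Lox were dim.

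Counted over probe sets with 1 symbol, both inhibitor arrays lay below both controls in 8 of 9 for the copper enzymes and in 1 of 5 for the flavin enzymes. The other flavin probe sets were 2 above and 2 overlapping. Dim among the copper probe sets were those of Aoc3 and Loxl4 and the dimmest of Lox. Among the flavin ones, that of Maob and the second of Smox were dim. Over every probe set with 1 symbol the share below was 22.3%, and the share without overlap in either direction 41.1%. Probe sets of 1 gene share a transcript, so these counts describe the arrays and are no test of a difference between the enzyme classes.

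**Figure D3:**
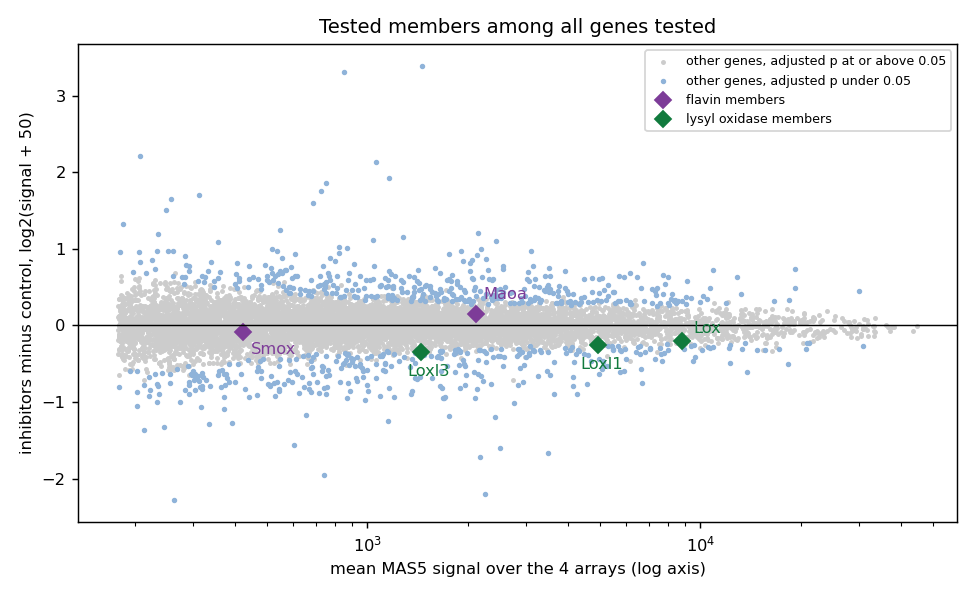
Inhibitors minus control in log2(signal + 50) against mean signal (log axis) for 9097 tested genes, with the 5 tested members as diamonds. Loxl3 (-0.35) lies among genes past the test, and Maoa, Smox, Lox and Loxl1 lie among genes that did not pass.

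Each compound was also set against the controls, with its lone array assumed to vary like the controls. Both comparisons use the same 2 control arrays. With TC, 2 of 5 tested members fell, Loxl3 (-0.36 ± 0.09; adjusted p = 0.0469, limma) and Loxl1 (-0.33 ± 0.07; 0.0255). Of all genes, 3.81% fell, 4.36% rose and 8.18% passed in either direction with TC. With S2101, 0 of 5 members passed (limma), while 3.33% of all genes fell, 3.37% rose and 6.71% passed in either direction. Loxl3 then stood at -0.34 ± 0.09 (adjusted p = 0.0684, limma) and Loxl1 at -0.18 ± 0.07 (0.193). Unadjusted p were under 0.05 for 3 members, Loxl3 (0.00540), Lox (0.0118) and Loxl1 (0.0337), a mark that 20.8% of all tested genes reached. With no filter on dim genes both calls for TC ended (Loxl1 0.185, Loxl3 0.199, limma), in fits where 0.066% of all genes passed with TC and 0.044% with S2101.

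Lox stood at -0.17 ± 0.07 with TC (adjusted p = 0.186, limma) and -0.22 ± 0.07 with S2101 (0.109). Maoa stood at 0.22 ± 0.08 with TC (95% interval 0.03 to 0.41; adjusted p = 0.160, limma) and at 0.09 ± 0.08 with S2101 (-0.10 to 0.28; 0.615). Smox stood at -0.09 ± 0.15 with TC and -0.08 ± 0.15 with S2101 (adjusted p = 0.763 and 0.819, limma). Whether TC and S2101 differed on any member was not tested.

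**Figure D4:**
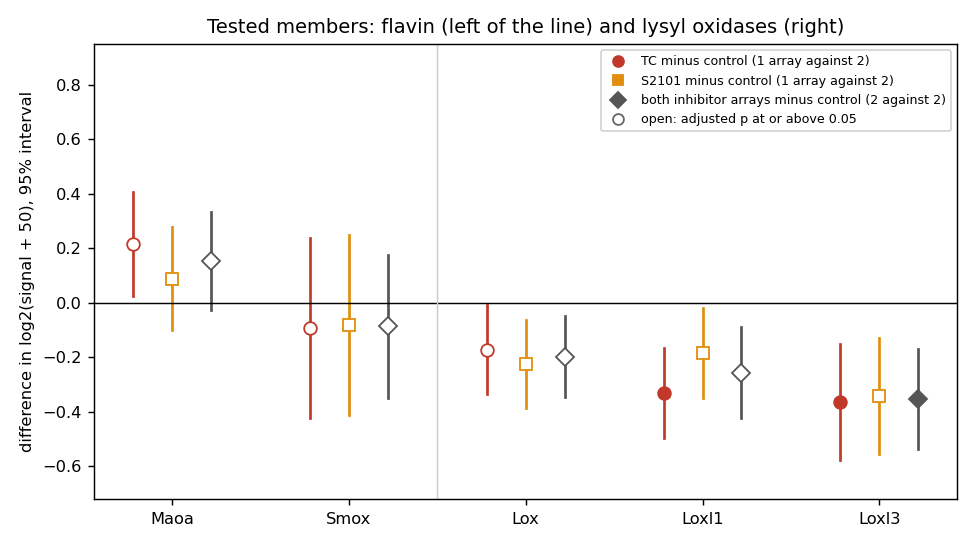
Difference in log2(signal + 50) with its 95% interval for the 5 tested members, TC minus control, S2101 minus control and both inhibitor arrays minus control; filled symbols have an adjusted p under 0.05. Filled are Loxl3 for TC and for both inhibitor arrays, and Loxl1 for TC.

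Genes around the lysyl oxidases were described from lists chosen with earlier results of these data known. Of 14 tested genes of collagen modification and crosslinking, 4 fell and 10 failed the test, while 3.74% of all tested genes fell. The median log2 difference of the 14 was -0.23, beside 0.01 for all genes tested. The procollagen proteinase enhancer Pcolce2 had 1407 with TC and 1224 with S2101, against 2039 and 1974 on the controls (log2 difference -0.59 ± 0.09; adjusted p = 0.00342, limma). The prolyl hydroxylase subunits P4ha1 (-0.48 ± 0.09; 0.00767) and P4ha2 (-0.43 ± 0.10; 0.0221) and the collagen chaperone Serpinh1 (-0.31 ± 0.07; 0.0196) fell too. The lysyl hydroxylases Plod1 (-0.20), Plod2 (-0.30, and -0.49 by its other bright probe set) and Plod3 (0.04) did not pass, nor did Bmp1 (-0.08), the protease that activates Lox. Calls ended for P4ha2 without control 1 or TC (adjusted p = 0.0975 and 0.0819, limma) and for Serpinh1 without control 2 or TC (0.191 and 0.0552).

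Of 13 tested substrates and elastic fibre genes, 7 fell and 6 failed the test, while 3.74% of all tested genes fell. Another 5 were too dim to test. Of these, Fmod, Fbn2, Emilin1 and Mfap4 were lower on both inhibitor arrays than on both controls, and Eln was higher. Fmod had 18.6 with TC and 19.0 with S2101, against 205 and 214 on the controls. Eln had 72.3 with TC and 83.0 with S2101, against 58.0 and 10.6 on the controls. The median of the 13 was -0.31, which moved to -0.51 without the S2101 array and to -0.25 without the TC array. Col4a1, a basement membrane collagen, had 1117 with TC and 1281 with S2101, against 2139.9 and 2169 on the controls (-0.82 ± 0.09; adjusted p = 5.94e-04, limma). The fibrillar collagen Col5a1 had 5165 with TC and 5499 with S2101, against 7907 and 7967 on the controls (-0.57 ± 0.07; adjusted p = 8.92e-04, limma). The fibulin Fbln2 (-0.53 ± 0.09; 0.00678), the microfibril gene Mfap5 (-0.38 ± 0.10; 0.0484) and the collagen Col5a2 (-0.31 ± 0.06; 0.0137) also fell, beside larger falls of Col1a1 (-1.19) and the matrix protein Postn (-0.95). Other bright probe sets gave smaller differences for Col1a1 (-0.57) and Col4a1 (-0.32), smaller and larger ones for Col5a1 (-0.33 and -0.74), a larger one for Col5a2 (-0.54) and a similar one for Mfap5 (-0.36). Against the shared controls, the median of the collagen modification genes was -0.28 with TC alone and -0.23 with S2101 alone. The bright collagens Col1a2 (-0.22) and Col3a1 (-0.14) did not pass, although another bright probe set of each gave -0.56 and -0.53. Neither did Fn1 (0.04, and -0.12 by its other bright probe set) or Fbln5 (0.13), a fibulin that binds Loxl1. With the probe sets of Fbln2 averaged, its difference was -0.24 and its call ended (adjusted p = 0.238, limma), as it did with dim genes kept (0.0633). The call of Col5a2 ended without control 1 (adjusted p = 0.121, limma), and that of Mfap5 without control 1 (0.133), control 2 (0.0802) or TC (0.165).

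**Figure D5:**
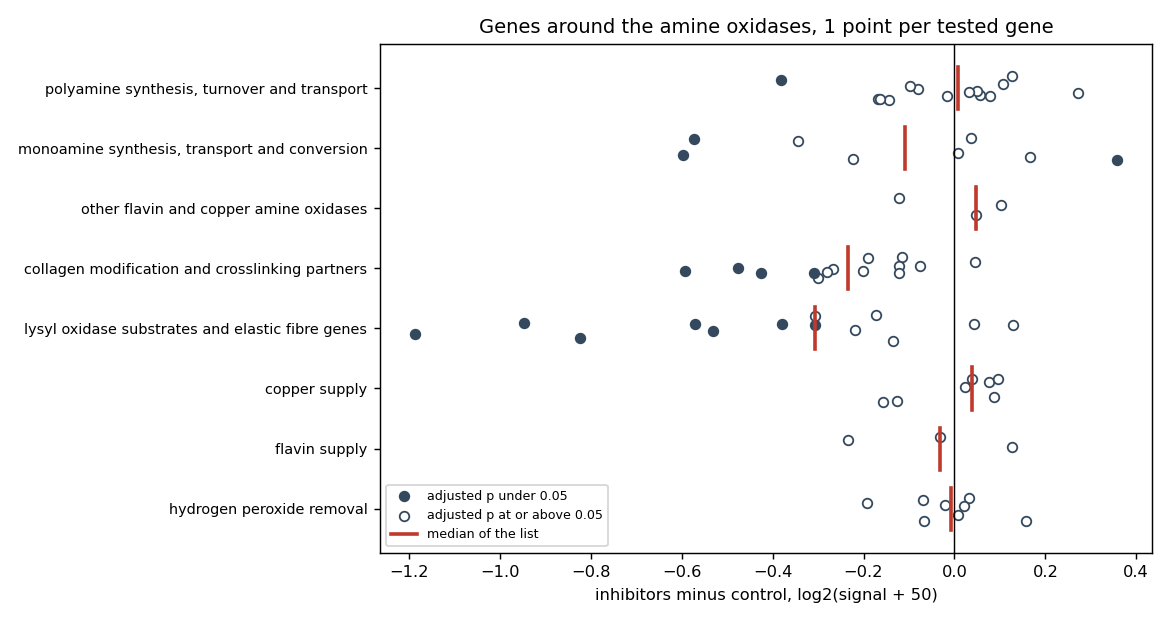
Inhibitors minus control in log2(signal + 50), 1 point per tested gene in 8 lists, filled where the adjusted p is under 0.05, with a bar at the list's median. Filled points lower than 0 number 7 among substrates and elastic fibre genes, 4 among collagen modification genes, 2 among monoamine genes and 1 among polyamine genes. The only filled point higher than 0 is Aldh2, a monoamine list gene. Other amine oxidases and the copper supply, flavin supply and hydrogen peroxide lists have none. Of all tested genes, 3.74% fell and 4.28% rose.

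Around the polyamine oxidases, 1 of 14 tested genes fell, beside 3.74% of all tested genes. The other 13 failed the test, and the median of the 14 was 0.01, without a stable sign over the alternatives (-0.035 to 0.068). The gene that fell was Srm, spermidine synthase, with 1204 with TC and 1266 with S2101, against 1541 and 1712 on the controls (log2 difference -0.38 ± 0.09; adjusted p = 0.0281, limma). Its call ended without control 2 (0.201) or TC (0.0835). The rate-limiting synthetic enzyme Odc1 (-0.08) and the spermidine acetyltransferase Sat1 (0.06), whose product Paox oxidises, did not pass. Other bright probe sets of Odc1 gave -0.10 and 0.08.

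Of 8 tested genes of monoamine synthesis, transport and conversion, 1 rose, 2 fell and 5 failed the test. Of all tested genes, 4.28% rose and 3.74% fell. The median of this list, -0.11, had no stable sign, at 0.017 without the TC array, 0.0074 with averaged probe sets and 0.26 with the filter at the 75th percentile. Aldh2, the mitochondrial dehydrogenase that clears aldehydes made by monoamine oxidases, had 4882 with TC and 4955 with S2101, against 3772 and 3879.6 on the controls (log2 difference 0.36 ± 0.07; adjusted p = 0.0101, limma). Its call ended without control 1 (0.0773), and with its probe sets averaged the difference was 0.13 (adjusted p = 0.582, limma). Dbh, which makes noradrenaline, had 203 with TC and 209 with S2101, against 316 and 346 on the controls (-0.57 ± 0.14; 0.0362). The noradrenaline transporter Slc6a2 had 143 with TC and 146 with S2101, against 247 and 242 on the controls (-0.60 ± 0.16; 0.0471). Both inhibitor signals of Slc6a2 lay below the limit of 178.8, so it entered the test only through its control arrays and had to differ. With probe sets averaged Dbh stood at -0.23 (adjusted p = 0.575, limma), and with an offset of 250 it stood at -0.35 and Slc6a2 at -0.32. Both calls ended on leaving out any single array (adjusted p from 0.0688 to 0.201 for Dbh and from 0.0818 to 0.199 for Slc6a2, limma).

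No tested gene of the remaining 4 lists passed (limma), and an unadjusted p under 0.05 was reached by 2 of 8 genes of hydrogen peroxide removal and 0 of the other lists, beside 22.3% of all tested genes. The amine-oxidising histone demethylases Kdm1a (-0.12) and Kdm1b (0.05), and Ppox (0.10), a flavin enzyme of haem synthesis with a related fold that is not itself an amine oxidase, had adjusted p of 0.343, 0.874 and 0.782 (limma). Another bright probe set of Kdm1a gave -0.0054. Among 7 copper supply genes, the largest differences were those of the copper importer Slc31a1 (-0.16), the copper chaperone Atox1 (-0.13) and Cox17 (0.10). Another bright probe set gave 0.12 for Slc31a1 and -0.026 for Atox1. Among 3 flavin supply genes, the carrier Slc25a32 stood at -0.23, riboflavin kinase Rfk at 0.13 and Flad1 at -0.03. Among 8 genes of hydrogen peroxide removal, Prdx4 stood at -0.19 (-0.81 and -0.52 by its other bright probe sets, and -0.35 with adjusted p = 0.112 when averaged, limma), Gpx4 at 0.16 and Gpx8 at -0.07. Medians of these lists were 0.05, 0.04, -0.03 and -0.01, beside 0.01 over all genes tested. None had a stable sign. Over the alternatives they ran from -0.12 to 0.19, -0.0015 to 0.088, -0.072 to 0.13 and -0.014 to 0.012, in the same order.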

How the data were processed

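Total RNA of 4 C2C12 samples, 250 ng each, was labelled with a 3′ kit, per the labels' protocols. The deposited values are MAS5 signal intensities, made by the authors with MAS5 and Affymetrix Expression Console per the submitters' processing notes, with no versions stated; detection calls were not used here. Of 45101 probe sets, 64 were array controls and left out, 34945 carried 1 symbol, 932 several and 9160 none listed. The probe set with the highest mean signal stood for a gene. Genes with a mean signal of at least 178.8 were tested on log2(signal + 50) with limma 3.58.1 in R 4.3.3 (eBayes with intensity trend, Benjamini-Hochberg at 0.05 over all genes tested). Residual degrees of freedom were 2 (prior 8.08) in the main fit and 1 (prior 8.37) with 3 groups. TC and S2101 formed 1 group because their descriptions number them as LSD1 inhibitor 1 and 2. The control arrays shared 1 identical value and were counted as separate samples. Every member is named; from each list all genes past the test are named, or otherwise the 3 largest differences, and a few others were named after their values were seen. Members were named as a family and not by their values, though earlier results of these data were known. The lists and the main comparison were also chosen with those results known. Alternatives changed the offset, filter, probe set choice, normalization, variance trend, block and arrays, and the fit over bright probe sets of any annotation was added after seeing the data. Coordinates are given only for RefSeq promoter windows.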

Additional observations from a re-analysis of the deposited data

How the results depend on the processing

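Maoa kept its direction and passed in none of the alternatives run (0.09 to 0.22), and Lox and Loxl1 kept theirs in all. Loxl3 stayed at -0.35 but no longer passed with no filter on dim genes, with every probe set tested (adjusted p = 0.127, limma) and with no intensity trend (0.0716), and leaving out 1 array gave -0.37 to -0.33. Against TC alone, Loxl1 (-0.33) and Loxl3 (-0.36) lost their calls in the same 3 settings, and Loxl3 also among bright probe sets of any annotation (0.0631). Against S2101 alone, Loxl3 (-0.34) passed with averaged probe sets (0.0325). Loxl1 ranged from -0.33 to -0.18 on leaving out 1 array. Averaging turned Smox to 0.14, and to 0.21 with TC and 0.069 with S2101. The probe set annotated to Loxl2 and Gm21451 lost its call without the filter (-0.59; -0.57 with TC, -0.61 with S2101), and for each compound also with no trend (adjusted p = 0.118 and 0.125). Genes past the test numbered 729 in the main setting, 266 without the filter, 457 at the 75th percentile, 468 with averaged probe sets, 107 over every probe set, 423 with no trend and 501 to 749 on leaving out 1 array. For TC (744) they numbered 12, 0 over every probe set and 83 with no trend, and for S2101 (610) 8, 0 and 112 (limma; at an unadjusted p under 0.05 those counts of 0 become 3958 and 3495 probe sets). List genes that fell numbered 14 in the main setting, where 340 of all 9097 genes fell. Without the filter they numbered 5 (Pcolce2, Col1a1, Col4a1, Col5a1 and Postn), beside 123 of all 18193 genes. Over every probe set they numbered 4 (the same but Pcolce2), beside 54 of 34945 probe sets. With no trend they numbered 8, beside 207 of 9097 genes. List genes that rose numbered 1 in the main setting (Aldh2), where 389 of all 9097 genes rose. They numbered 0 with averaging, over every probe set and with no trend, where 225 genes, 53 probe sets and 216 genes rose. The numbers in the sample descriptions were used as a replicate block, although the arrays' deviations correlated at only 0.07 and nothing marks a pairing: 1223 genes then passed, with Lox (-0.20; adjusted p = 0.0443) and Loxl1 (-0.26; 0.0202) among them. Among genes that never passed, Atox1 turned to 0.10 with averaging, Kdm1b ranged from -0.10 to 0.19 on leaving out 1 array (-0.06 without control 1), Ppox stood at -0.0030 and Flad1 at 0.0095 without S2101, and Flad1 at -0.072 without TC. Causes of these changes were not tested. Quantile normalization changed no call of a member, and the share of calls that were higher was 48.4%, against 53.4% in the main setting. Leaving out a control was not run for each compound, since no residual degrees of freedom remain. Signal over background limits Maob, Aoc3 and Loxl4, whose signals were dim on every array.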
